A study of Rattus norvegicus with 12 samples.

Results

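Bdnf and 5 genes that work with it or beside it were followed through the rat periaqueductal grey, the midbrain region around the cerebral aqueduct that gates descending control of pain. The members were taken by name: the ligands Bdnf and Ntf3, the receptor tyrosine kinases Ntrk2 and Ntrk3, the p75 receptor Ngfr and the sorting receptor Sort1. All 6 were found among the 41596 genes of the deposited files, and all 6 were among the 24540 genes tested, those with a mean of at least 0.5 TPM, a level scaled for transcript length and library total. The level of a gene was the TPM summed over its transcripts, 38 transcripts for the 6 genes, of which 27 had a mean of at least 0.5 TPM.

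The study sequenced polyA RNA from the periaqueductal grey of 12 male Sprague Dawley rats. Of these, 6 had sires given saline and 6 had sires given morphine, and they are called saline-sired 1 to 6 and morphine-sired 1 to 6 here, numbered in the order of deposit. By its title, the study concerns how long-term morphine in the father bears on pain relief by morphine in the offspring. The sources used here do not give the offspring's age, any treatment of their own, or which of them share a sire or litter, so the p-values measure only the spread between these animals.

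Neurotrophins are secreted proteins that keep neurons alive and tune their synapses. They are made as precursors that are cut by convertases. The mature form of brain-derived neurotrophic factor, the product of Bdnf, acts through TrkB (Ntrk2), and neurotrophin-3 (Ntf3) acts through TrkC (Ntrk3), while the precursors bind p75 (Ngfr) together with sortilin (Sort1). Both Trk genes also make truncated receptors without the kinase domain, which in the case of TrkB are abundant in astrocytes. In the periaqueductal grey, BDNF is known as a modulator of the descending pathway to the medulla that sets pain sensitivity.

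The libraries held 4.39 to 6.03 gigabases of sequence behind their values, and no pair of libraries held identical values. Neuronal markers were present throughout, with Snap25, a synaptic vesicle fusion protein, between 1715 and 2090 TPM. Markers of neighbouring nuclei were uneven: Tph2, the serotonin-synthesising enzyme, ranged from 0.450 to 445 TPM and Th, the dopamine-synthesising enzyme, from 19.6 to 309 TPM. The library morphine-sired 2 stood apart, with the highest Th and with 1756 TPM of Ttr, the choroid plexus transport protein, whose median was 4.27 TPM in the saline-sired and 18.3 TPM in the morphine-sired libraries. The summed levels of all 17 marker lists overlapped between the groups.

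Bdnf is known for a cluster of alternative first exons, each with its own promoter and each spliced to the same coding exon. The bases before 3 of them are shown because the Bdnf transcripts starting there are described below. The sequences come from RefSeq (build GRCr8, plus strand of chromosome 3), where the spacing of the starts matched that of the first exons in the files. Each run holds the 250 bases before the start, 5′ to 3′. Capitals mark TCACGTCA, the letters of the calcium response element that CREB is known to bind in the activity-dependent promoter of this gene.
Bdnf first exon 1, chr3:116619383-116619632: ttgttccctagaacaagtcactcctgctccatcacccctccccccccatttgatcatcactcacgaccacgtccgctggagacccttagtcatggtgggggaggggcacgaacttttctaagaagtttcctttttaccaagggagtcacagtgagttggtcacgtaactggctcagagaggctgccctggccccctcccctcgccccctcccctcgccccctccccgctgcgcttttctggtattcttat
Bdnf first exon 2, chr3:116620585-116620834: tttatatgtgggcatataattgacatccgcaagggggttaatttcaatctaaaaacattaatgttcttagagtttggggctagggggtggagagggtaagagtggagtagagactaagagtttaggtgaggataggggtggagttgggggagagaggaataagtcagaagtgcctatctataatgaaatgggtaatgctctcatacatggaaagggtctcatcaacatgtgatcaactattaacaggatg
Bdnf first exon 4, chr3:116637608-116637857: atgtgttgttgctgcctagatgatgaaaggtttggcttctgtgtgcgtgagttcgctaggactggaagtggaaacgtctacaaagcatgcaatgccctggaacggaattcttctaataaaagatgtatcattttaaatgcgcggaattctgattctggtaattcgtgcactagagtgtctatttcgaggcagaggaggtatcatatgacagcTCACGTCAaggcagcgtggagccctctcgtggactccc
The motif stood at position -38 before the start of first exon 4, counted with -1 as the last base before the start. It was found in 1 of the 10 windows listed for the members (6 of Bdnf, 3 of Ntf3 and 1 of Sort1). The Bdnf windows matched first exons 1, 2, 3, 4 and 7 and 1 further transcript start, so first exons 5 and 6 were not searched. Over all 33469 windows of that length, searched on both strands, TCACGTCA occurred in 0.350%, the palindromic cAMP response element TGACGTCA in 1.59% and the E-box CACGTG in 5.59%. Neither of the last 2 motifs was in a member's window. TCACGTCA and TGACGTCA share their last 6 letters, and no match overlapped another.

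The levels of the 6 genes spanned more than 2 orders of magnitude and kept nearly the same order in every animal. Ntrk2 was highest (mean 244 TPM over the 12 libraries, above 97.4% of the genes tested), followed by Sort1 (162 TPM, above 95.9%), Ntrk3 (36.6 TPM, above 80.1%), Bdnf (7.99 TPM, above 51.8%), Ngfr (1.69 TPM, above 21.7%) and Ntf3 (0.620 TPM, above 2.36%). Per transcript length, both Trk receptors and Sort1 were listed above both ligands, while Ngfr lay below Bdnf in all 12 libraries. Neighbours in this order overlapped at both ends: Ntrk2 exceeded Sort1 in 11 of 12 libraries, and Ngfr exceeded Ntf3 in 11 of 12. The other steps in the order did not overlap in their ranges.

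**Figure D1:**
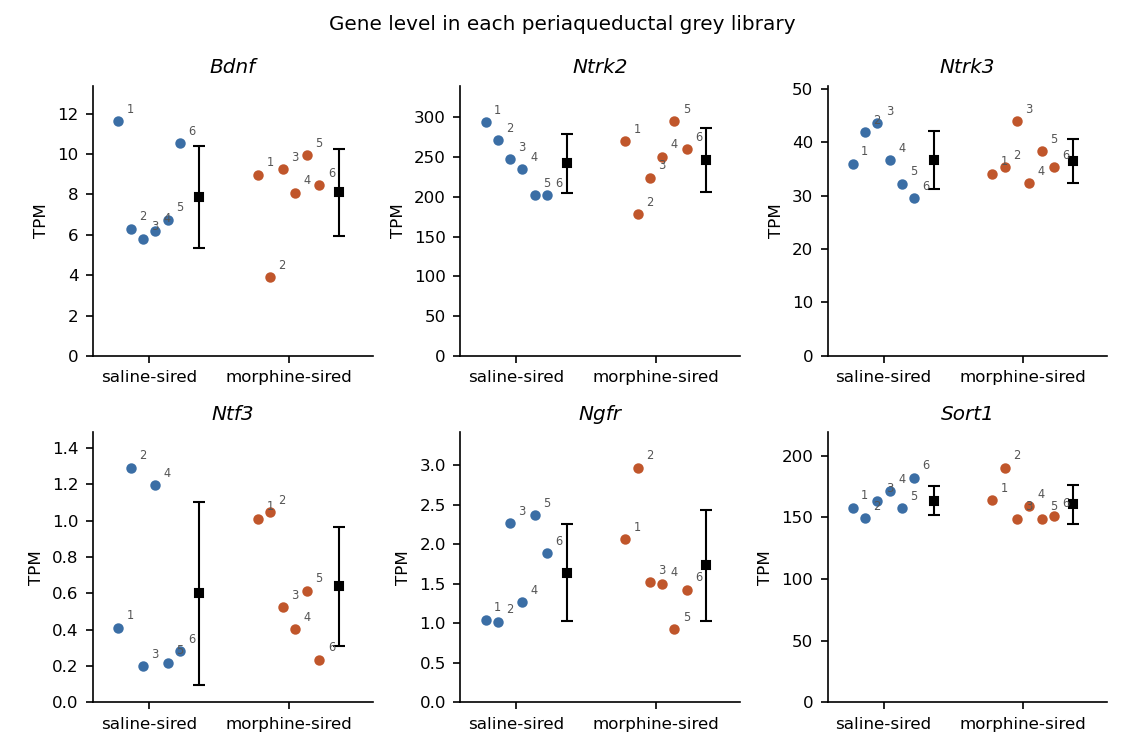
TPM (y axis, linear from 0) of each of the 6 genes in the saline-sired and morphine-sired libraries; numbered points are libraries, and squares with bars are group means with SD (n = 6 per group). The 2 groups overlap for every gene, and library 2 of the morphine-sired group is lowest for Bdnf (3.90 TPM) and Ntrk2 (179 TPM) and highest for Ngfr (2.97 TPM) and Sort1 (190 TPM).

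No member differed between offspring of morphine-treated and saline-treated sires beyond the spread between animals. In limma (moderated linear model on log2(TPM + 1), adjusted over all genes tested), 0 of 6 members passed an adjusted p of 0.05, against 0 of 24540 genes (0%), and at an unadjusted p under 0.05 there were 0 of 6 members against 790 genes (3.22%). The groups overlapped for all 6 members, while 0.0896% of all genes had groups that did not overlap. Differences are given below on the log2(TPM + 1) scale, as morphine-sired minus saline-sired, which understates the change of low genes.

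Among the ligands, Bdnf lies at chr3:100768637-100819210 on the plus strand (Rnor_6.0, the build of the files). Its TPM had a lowest value, median and highest value of 5.80, 6.53 and 11.6 in saline-sired libraries and of 3.90, 8.73 and 9.95 in morphine-sired libraries. In the saline-sired group 4 libraries lay between 5.80 and 6.75 TPM and the other 2 (numbers 1 and 6) above 10.5, while morphine-sired 2 lay below every other library. Saline-sired 1 and 6 also stood apart in markers of neighbouring nuclei, with Chat, the acetylcholine-synthesising enzyme, at 0.0955 and 0.569 TPM against 23.8 to 31.8 TPM in the other saline-sired libraries, and Tph2 at 0.450 and 0.672 TPM against 22.7 to 445 TPM. Morphine-sired 1 was likewise low in both (1.148 and 0.489 TPM), with Bdnf at 8.98 TPM. The part of these differences in the Bdnf values was not tested beyond the fit with both marker scores as terms, which gave a log2 difference of -0.09. The means were 7.88 ± 2.53 and 8.11 ± 2.16 TPM (SD, n = 6 each), a log2 difference of 0.04 ± 0.22 (SE; 95% interval -0.43 to 0.50) with a limma adjusted p of 0.9998.

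Ntf3 (chr4:158636884-158705886, minus strand) was near the limit of detection, at 0.200, 0.347 and 1.29 TPM in saline-sired and 0.235, 0.570 and 1.05 TPM in morphine-sired libraries (lowest, median, highest). The high values lay in 2 libraries of each group. The log2 difference was 0.07 ± 0.22 (95% interval -0.40 to 0.54). Its 2 transcripts with any value were exclusive of each other: ENSRNOT00000082009 was listed above 0 in saline-sired 2 (1.29 TPM) and saline-sired 4 (1.20 TPM), where ENSRNOT00000087115 was listed at 0, and the reverse held in the other 10 libraries. The third, ENSRNOT00000026685, was listed at 0 in all 12. Ntf4, another TrkB ligand, fell below the level tested, between 0 and 0.509 TPM.

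Ntrk2 (chr17:5929472-6246374, minus strand) had 202, 242 and 294 TPM in saline-sired and 179, 255 and 295 TPM in morphine-sired libraries (lowest, median, highest). Its values spread evenly through both groups, with 1 low library, morphine-sired 2. The means of 242 ± 36.7 and 247 ± 40.6 TPM gave a log2 difference of 0.02 ± 0.12 (95% interval -0.25 to 0.29). Ntrk3 (chr1:139843155-140262503, minus strand) had 29.6, 36.3 and 43.5 TPM against 32.3, 35.3 and 43.9 TPM. Both groups covered nearly the same range. The means of 36.6 ± 5.39 and 36.5 ± 4.11 TPM gave a log2 difference of 0.00 ± 0.10 (95% interval -0.21 to 0.22).

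Ngfr (chr10:83389847-83408061, minus strand), with a single annotated transcript, had 1.02, 1.58 and 2.37 TPM in saline-sired and 0.931, 1.51 and 2.97 TPM in morphine-sired libraries. The highest value was that of morphine-sired 2. The log2 difference was 0.04 ± 0.20 (95% interval -0.38 to 0.47). Sort1 (chr2:211078334-211156312, plus strand) was the steadiest member, with a coefficient of variation of 8.21% over the 12 libraries against 28.1% for Bdnf and 65.6% for Ntf3. It had 149, 161 and 182 TPM in saline-sired and 149, 155 and 190 TPM in morphine-sired libraries, and morphine-sired 2 was again the highest. The log2 difference was -0.03 ± 0.07 (95% interval -0.18 to 0.12).

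The sortilin relatives were at 22.5 ± 1.93 and 20.8 ± 2.14 TPM for Sorcs1, 32.7 ± 3.54 and 34.2 ± 3.45 TPM for Sorcs2, and 12.7 ± 2.47 and 11.6 ± 1.93 TPM for Sorcs3 (SD, n = 6 each). None passed in limma, with log2 differences between -0.11 (Sorcs1 and Sorcs3) and 0.07 (Sorcs2). Sorl1 was not found under its symbol.

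**Figure D2:**
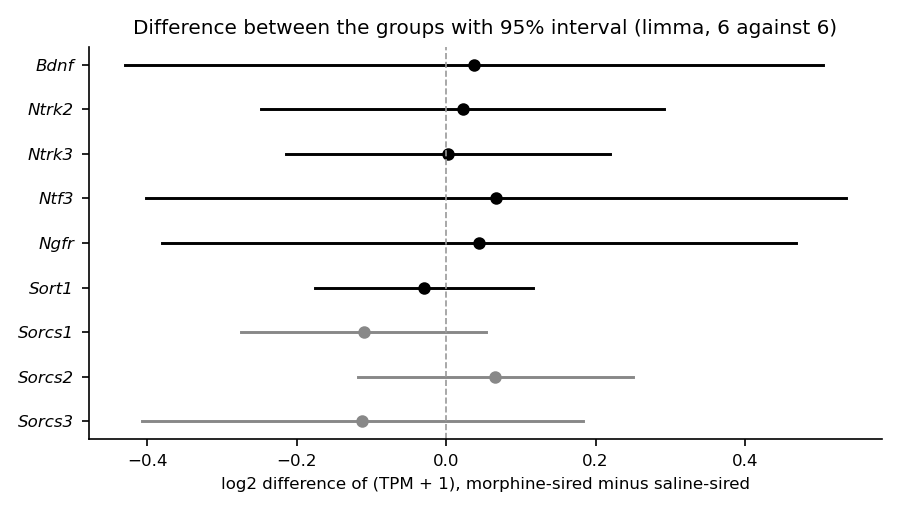
Log2 difference of (TPM + 1) between morphine-sired and saline-sired libraries (x axis) for the 6 members (black) and 3 sortilin relatives (grey), with 95% intervals from limma (n = 6 per group). Every interval includes 0; the narrowest of the members is that of Sort1 (-0.18 to 0.12) and the widest those of Bdnf (-0.43 to 0.50) and Ntf3 (-0.40 to 0.54).

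The intervals give the precision of each difference before adjustment over genes. For Sort1 the half-width of 0.15 and for Ntrk3 that of 0.22 on the log2 scale were below the median half-width over all genes tested (0.30), as was that of Ntrk2 (0.27). For Bdnf (0.47), Ntf3 (0.47) and Ngfr (0.42) it was wider. These half-widths are not the smallest differences that would pass, because every call was adjusted over all genes tested. Egr3, described below, had an interval of -0.77 to -0.16 and did not pass (limma adjusted p = 0.9998). In simulated data 200 of 24540 genes were changed. The gene test recovered 43% of them at a 1.5-fold change, 74.5% at 2-fold and 93.5% at 4-fold. These percentages are over all 200 changed genes, and recovery at the spread of Bdnf, Ntf3 or Ngfr was not tested.

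Bdnf transcripts fell into 7 classes by first exon, and 4 of them carried most of the signal in both groups. Numbered from the 5′ end, first exon 2 (chr3:100769839-100770337, 499 bases) held the largest mean share of Bdnf TPM, 40.5%. First exon 6 (chr3:100787956-100788303) held 22.9%, first exon 1 (chr3:100768637-100769275) 16.7% and first exon 4 (chr3:100786862-100787201), preceded by TCACGTCA, 13.3%. First exons 3, 5 and 7 had means below 0.5 TPM and held 4.23%, 1.6% and 0.802%.

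The share of first exon 2 had a lowest value, median and highest value of 25.3%, 34.3% and 47.9% in saline-sired and of 30.4%, 46.3% and 54.4% in morphine-sired libraries. The morphine-sired values tended higher, with wide overlap (35.6% ± 8.46 and 45.4% ± 8.61, SD, n = 6 each; exact permutation p = 0.0866, adjusted p = 0.292). First exon 6 had 10.6%, 30.5% and 35.8% against 5.58%, 20.1% and 25.8%, with the low value of each group in saline-sired 1 and morphine-sired 2 (exact permutation p = 0.0931, adjusted p = 0.292). First exon 1 had 13.5%, 16.8% and 39.3% against 4.49%, 11.6% and 26.8%, where the top value was that of saline-sired 1 (exact permutation p = 0.158, adjusted p = 0.292). The share of first exon 4 was 13.8% ± 4.83 and 12.8% ± 6.51 (exact permutation p = 0.777, adjusted p = 0.863).

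At these levels a single class rested on little sequence. The last exon common to all Bdnf transcripts (3652 bases) had a mean depth of 3.49 reads per base and gigabase of library, and first exons 1, 2, 4 and 6 had 0.601, 0.791, 0.526 and 1.16. In saline-sired 1 the depth of first exon 1 was 1.59, against 0.282 to 0.849 in the other saline-sired libraries, so the high share there was also seen in its exon. By exon depth first exon 6 came before first exon 2, the opposite of the order by TPM share. The depth of first exon 6 was also not lower in the morphine-sired libraries, as its share was: it was 1.00 ± 0.222 in saline-sired and 1.33 ± 0.839 in morphine-sired libraries (SD, n = 6 each), with overlap, and this difference in depth was not tested.

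**Figure D3:**
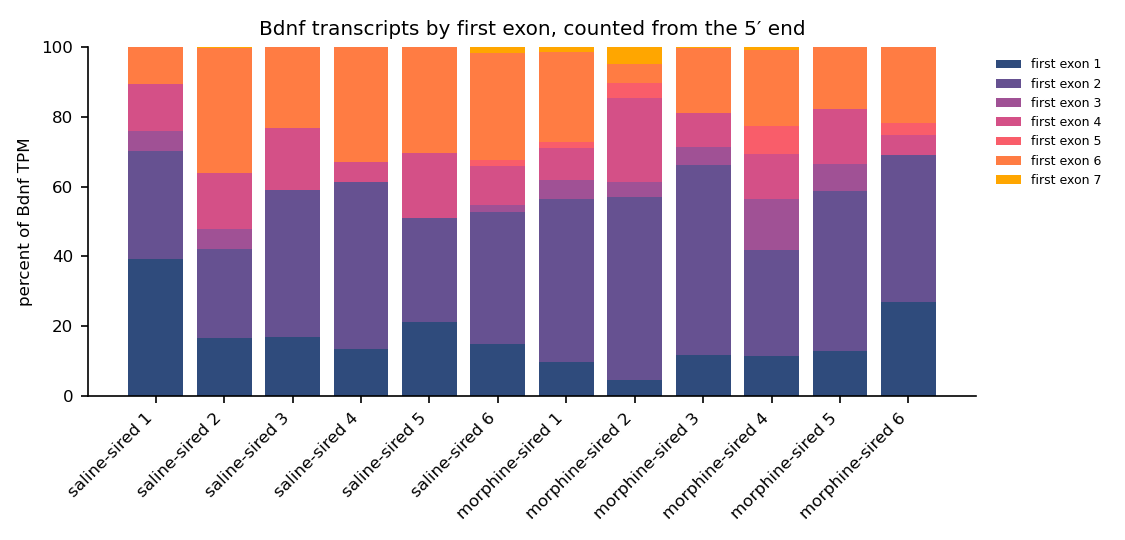
Stacked bars give the percent of Bdnf TPM (y axis) held by transcripts of each of the 7 first exons, numbered from the 5′ end, in each library (x axis). First exon 2 holds 25.3% to 54.4% in every library, and saline-sired 1 has the largest share of first exon 1 (39.3%).

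For Ntrk2 the full-length and truncated receptors were both abundant. Transcripts ending in the last exon of the truncated form (chr17:6114598-6119459, 4862 bases) had a mean of 139 TPM, and transcripts running on to the kinase exons had 105 TPM, 57.4% and 42.6% of the gene. The full-length share was 21.8%, 41.9% and 50.7% in saline-sired and 41.1%, 47.1% and 53.8% in morphine-sired libraries (lowest, median, highest). Saline-sired 5 and 6 lay apart from the other 10, at 21.8% and 24.6%. The difference did not pass (38.4% ± 12.4 and 46.8% ± 4.56, SD, n = 6 each; exact permutation p = 0.175, adjusted p = 0.292).

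The low values of saline-sired 5 and 6 were not seen in the depth of the exons themselves. The 5 inner exons private to full-length Ntrk2 transcripts (887 bases) had depths of 33.4 and 35.6 reads per base and gigabase there, within the 32.8 to 38.5 of the saline-sired group. Relative to the 11 exons shared by all annotated transcripts, these private exons stood at 34.6% ± 2.61 and 33.8% ± 4.33 (exact permutation p = 0.719, adjusted p = 0.838). The annotated full-length transcript ENSRNOT00000042145 was at 6.69 and 7.67 TPM in saline-sired 5 and 6 and at 66.8 to 104 TPM in the other 10 libraries. The assembled transcript MSTRG.10288.5 was at 33.2 and 36.8 TPM in those 2 libraries and at 0.14 to 0.76 TPM in 8 of the others. It was also high in saline-sired 2 (29.5 TPM) and morphine-sired 1 (29.8 TPM). There ENSRNOT00000042145 was at 101 and 93.0 TPM, so a high value was not particular to saline-sired 5 and 6. Estimates of single Ntrk2 transcripts varied in this way for most of the 17 transcripts (MSTRG.10288.14, a truncated form, from 0 to 152 TPM), while the gene total had a coefficient of variation of 15.1%.

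The depth of the truncated last exon of Ntrk2 was lower relative to the shared exons in the morphine-sired libraries, but did not pass after adjustment. It had 66.5%, 71.0% and 80.4% in saline-sired and 34.0%, 62.5% and 69.6% in morphine-sired libraries (lowest, median, highest). The lowest 4 values were all morphine-sired, and morphine-sired 3 lay far below the rest. The means were 71.7% ± 4.64 and 58.9% ± 12.9 (difference -12.7 percentage points, exact permutation p = 0.00866, adjusted p = 0.0606 over 7 exon ratios, which were chosen after the transcript estimates had been seen). Without morphine-sired 3 the difference was -7.75 points. It passed with either of 2 libraries left out, at -14.4 points without morphine-sired 5 and -14.9 points without morphine-sired 6 (exact permutation, adjusted p = 0.0303 in both). In morphine-sired 3 the shared exons had their greatest depth of all libraries (139 reads per base and gigabase) and the truncated last exon 47.2, next to the least (44.2, in morphine-sired 2). The ratio of the full-length exons was also lowest in morphine-sired 3, at 26.9%. In morphine-sired 1, 4, 5 and 6 the truncated last exon had 75.5, 68.1, 78.5 and 73.6, within the 65.7 to 85.8 of the saline-sired group. The shared exons had 119, 111, 117 and 106 there, against 92.3 to 110 in the saline-sired group. Group differences in these depths were not tested.

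Ntrk3 showed a truncated form of its own, ending at chr1:139992204-139992322. The only annotated transcript of that class, ENSRNOT00000025536, held a mean of 70.5% of Ntrk3 TPM, with 52.1%, 66.4% and 76.0% in saline-sired and 67.9%, 75.6% and 83.5% in morphine-sired libraries. The morphine-sired values lay higher with overlap (66.0% ± 8.81 and 74.95% ± 6.24; exact permutation p = 0.0606, adjusted p = 0.292). By exon depth, its last exon stood at 34.5% ± 4.97 and 42.9% ± 6.24 of the shared exons (exact permutation p = 0.0325, adjusted p = 0.0758). In 5 of 6 morphine-sired libraries it lay above 5 of 6 saline-sired ones. The mean of this ratio over the 12 libraries, 38.7%, was well below the 70.5% share of TPM, and the cause was not tested. The ratio passed without saline-sired 1 (10.4 points, exact permutation adjusted p = 0.0455) and without morphine-sired 6 (10.2 points, exact permutation adjusted p = 0.0379). The exons private to full-length Ntrk3 stood at 22.9% ± 3.50 and 23.1% ± 2.97 (adjusted p = 0.939 in the same exact permutation test). The truncated form has an inner exon of its own (chr1:139993816-139993950, 135 bases). Its depth was 7.39 ± 1.73 and 8.54 ± 1.56 reads per base and gigabase (SD, n = 6 each), with overlap. Saline-sired 1, at 9.49, lay above every morphine-sired library but morphine-sired 3 (11.2). The ratio of this exon to the shared exons was not tested.

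Full-length TrkC is known to occur with short inserts in its kinase domain, and 2 optional exons of 42 and 75 bases lay among the full-length exons of Ntrk3. The 42-base exon (chr1:139903170-139903211) had 19.3%, 26.6% and 34.3% of the depth of the full-length exons in saline-sired and 0%, 14.3% and 28.6% in morphine-sired libraries. Morphine-sired 3 and 5 lay within the saline-sired values, and the exon was listed at 0 in morphine-sired 1. The means of 26.8% ± 4.99 and 14.6% ± 9.79 did not pass after adjustment (exact permutation p = 0.0216, adjusted p = 0.0758), and passed without morphine-sired 3 (-15.0 points, exact permutation adjusted p = 0.0455). The 75-base exon (chr1:139924805-139924879) had 20.3% ± 11.8 and 7.12% ± 8.01 (exact permutation p = 0.0563, adjusted p = 0.0985). These percentages rest on low depth, 0.772 and 0.510 reads per base and gigabase on average. A 48-base optional exon of full-length Ntrk2 (chr17:6076003-6076050) stood at 10.4% ± 2.99 and 9.65% ± 1.86 of its full-length exons (exact permutation p = 0.667, adjusted p = 0.838).

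**Figure D4:**
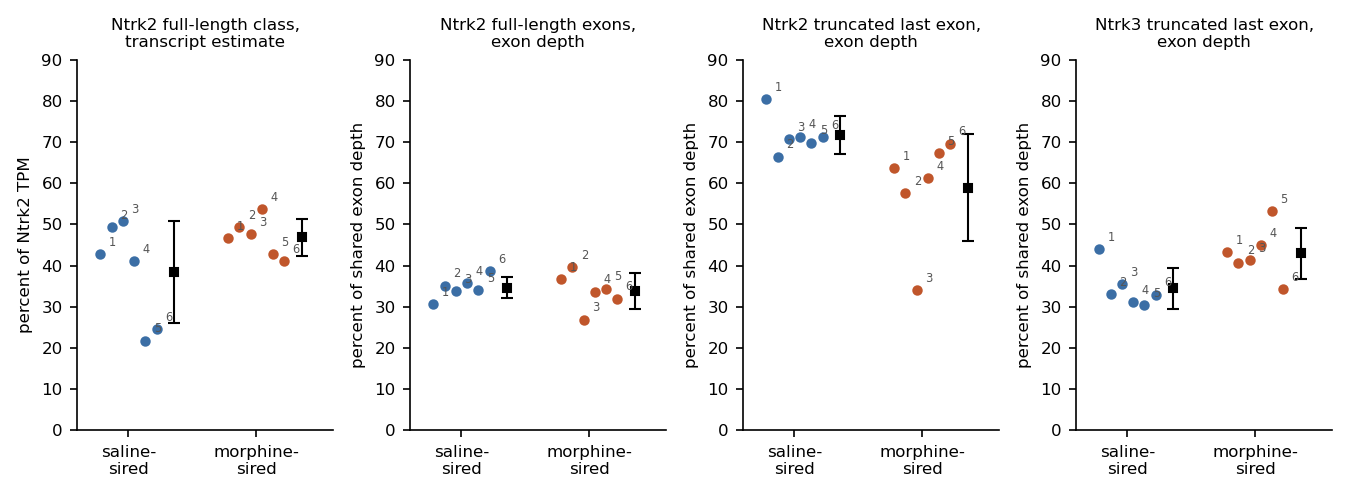
Percent (y axis) of Ntrk2 TPM held by full-length transcripts, and depth of Ntrk2 full-length exons, of the Ntrk2 truncated last exon and of the Ntrk3 truncated last exon as percent of the shared exon depth, by group; numbered points are libraries, squares with bars are means with SD (n = 6). Saline-sired 5 and 6 are low by transcript estimate (21.8% and 24.6%) and lie among the others by exon depth (34.1% and 38.6%).

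Sort1 transcripts shared 1 last exon. Their 2 main forms, ENSRNOT00000049127 (80.3 ± 8.97 and 81.4 ± 12.3 TPM, SD, n = 6 each) and the assembled MSTRG.14111.1 (70.2 ± 7.95 and 67.6 ± 12.7 TPM), differ by 5 bases in length and split the gene about evenly. Another form with 1 more exon, MSTRG.14111.2, was at 13.1 ± 3.37 and 11.5 ± 2.18 TPM. Among the 27 member transcripts tested, 0 passed in limma, against 1 of 50419 transcripts (0.00198%), and 0 of 27 had an unadjusted p under 0.05 (3.77% of all transcripts).

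The genes around the neurotrophins were likewise not called. In 8 lists with 137 tested genes in all, 0 genes passed in limma in either direction and 3 had an unadjusted p under 0.05, beside 3.22% of all genes. The median log2 difference was 0.05 over the 2 ligands tested, 0.01 over 8 receptors, 0.09 over 13 genes of proneurotrophin processing and secretion, -0.02 over 25 Trk adaptors and 0.03 over 17 partners of p75. It was -0.04 over 34 effectors of the ERK, PI3K and CREB routes, -0.05 over 18 regulators of the Bdnf gene and 0.02 over 20 genes that respond to BDNF, against -0.00 over all genes tested.

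The gene with the smallest p was Egr3, an immediate early transcription factor induced through TrkB, at 2.46, 3.98 and 4.94 TPM in saline-sired and 1.81, 2.61 and 3.04 TPM in morphine-sired libraries. The morphine-sired values reached from below the saline-sired range into its lower part, so the groups overlapped. The log2 difference was -0.46 ± 0.14, with an unadjusted limma p of 0.00588 and an adjusted p of 0.9998. Kidins220, a scaffold that binds Trk receptors, was at 119 ± 5.30 and 111 ± 4.34 TPM (log2 difference -0.09 ± 0.04, limma adjusted p = 0.9998, unadjusted 0.0459). Hras, a small GTPase upstream of ERK, was at 121 ± 5.30 and 128 ± 3.96 TPM (0.09 ± 0.04, limma adjusted p = 0.9998, unadjusted 0.0482).

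Of the processing genes, Pcsk7, a proprotein convertase, was at 16.9 ± 0.848 and 18.5 ± 1.39 TPM, Hap1, which carries BDNF vesicles, at 277 ± 52.4 and 327 ± 70.4, and Cpe, a sorting receptor for the BDNF precursor, at 1661 ± 111 and 1824 ± 255. Of the adaptors, Sh2b2 was at 10.8 ± 1.56 and 13.4 ± 3.28 TPM and Sos1, the exchange factor that activates Ras, at 10.3 ± 3.88 and 6.53 ± 2.96. Of the p75 partners, Arhgdia was at 412 ± 28.8 and 431 ± 16.1 TPM, Adam17, the sheddase of p75, at 14.2 ± 0.815 and 13.4 ± 0.879, and Sall2, which binds p75, at 44.8 ± 3.81 and 47.5 ± 4.65. None of these passed in limma.

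The ribosomal S6 kinases below ERK were at 14.9 ± 7.05 and 20.3 ± 4.24 TPM for Rps6ka2 and 9.08 ± 1.02 and 8.07 ± 0.333 TPM for Rps6ka3. Of the Bdnf regulators, Mef2d, an activity-dependent transcription factor, was at 38.2 ± 3.13 and 33.5 ± 5.04 TPM and Rcor1, a corepressor of the REST complex, at 9.26 ± 1.76 and 7.96 ± 0.761. Usf1, which binds E-boxes, had a median of 0.00072 TPM in the saline-sired group with a highest value of 14.8, and 0.104 TPM at most in the morphine-sired group. Usf1, Sos1 and Rps6ka2 each lie in a locus that the assembly joined with a second gene, so their estimates are uncertain. Of the responsive genes, Junb was at 23.6 ± 3.56 and 28.6 ± 6.17 TPM and Slc12a2, the chloride importer NKCC1, at 85.9 ± 8.58 and 79.3 ± 18.7.

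The levels of some members moved across the 12 libraries with marker lists of cell types and neighbouring territories. Each member was set against 17 marker lists, scored per library as the mean standardised log2(TPM + 1) of the list, and 11 of 102 pairs passed a permutation test on Pearson's r after adjustment. The 11 had the same sign within both groups of 6. They were chosen by r over these same 12 libraries, so this is no separate check. All libraries share their totals across genes, and in tissue RNA fewer cells of a type cannot be told apart from less RNA per cell. By Spearman's rho 0 of 102 pairs passed after adjustment, and 0 of 102 without the 2 libraries farthest from the median score, though 11 and 9 of the 11 had unadjusted permutation p-values under 0.05.

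Bdnf was lower in libraries with higher scores of the catecholamine, neuronal, serotonergic and mesencephalic trigeminal lists. With catecholamine markers (led by Th, Aldh1a1 and Slc18a2) r was -0.91 (permutation p = 0.00013, adjusted p = 0.00892, rho = -0.82, -0.90 within the saline-sired and -0.95 within the morphine-sired group). Without saline-sired 5 and morphine-sired 2 it was -0.84. With general neuronal markers, led by Snap25 and the neurofilaments Nefl and Nefm, r was -0.84 (adjusted permutation p = 0.0141, rho = -0.78). The markers of this list did not all run alike. Nefl was at 634 and 959 TPM in saline-sired 1 and 6, where Bdnf was highest, and at 2422 TPM in morphine-sired 2. Syt1 and Rbfox3, other markers of the list, ran the other way, at 320 and 373 against 225 TPM and at 77.7 and 63.9 against 62.7 TPM. Elavl4 (39.7 and 24.9 against 34.7 TPM) and Map2 (416 and 242 against 317 TPM) were mixed. Snap25 was mixed too, at 1854 and 2090 against 2079 TPM. Nefm, Nefh, Tubb3 and Stmn2 were lower in saline-sired 1 and 6 than in morphine-sired 2, as Nefl was. For Bdnf r was -0.80 with serotonergic markers (adjusted permutation p = 0.0227, rho = -0.78) and -0.77 with markers of the mesencephalic trigeminal nucleus, led by Pvalb (adjusted permutation p = 0.0319, rho = -0.71). The serotonergic list shares genes with the catecholamine list, among them Slc18a2, so these relations are not independent.

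Bdnf was higher where thalamic and collicular markers were higher (Tcf7l2, Prkcd and Shox2 lead the list). There r was 0.87 (permutation p = 0.00035, adjusted p = 0.00892, rho = 0.85, 0.78 within the saline-sired and 0.95 within the morphine-sired group), and 0.71 without saline-sired 4 and morphine-sired 2. Tcf7l2, a transcription factor of these territories, ranged from 7.58 TPM in morphine-sired 2, where Bdnf was lowest, to 151 TPM in saline-sired 6, where Bdnf was second highest. Whether these territories account for the spread of Bdnf was not tested.

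Sort1 was higher where the oligodendrocyte score was higher and lower where the astrocyte and ependymal scores were higher. With oligodendrocyte markers (Mbp and Mobp among them) r was 0.78 (permutation p = 0.00229, adjusted p = 0.0261, rho = 0.72), and with markers of their precursors 0.79 (adjusted permutation p = 0.0261, rho = 0.73). With astrocyte markers (Aldoc, S100b, Gfap) it was -0.85 (permutation p = 0.00032, adjusted p = 0.00892, rho = -0.79) and with ependymal markers -0.86 (adjusted permutation p = 0.00892, rho = -0.83). Without morphine-sired 2 and 3, the libraries at the ends of these scores, the 4 values were 0.56, 0.51, -0.77 and -0.71, so that the first 2 rested in part on those libraries. Single markers need not follow the score of their list. S100b was at 2041 TPM in morphine-sired 2, which had the lowest astrocyte score (-1.08) and the highest Sort1. It was at 1898 TPM in morphine-sired 3, which had the highest astrocyte score (1.10). Relations of Sort1 with single markers were not tested.

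Ntrk2 and Ngfr stood on opposite sides of the precursor markers, led by Bcas1, Olig1 and Sox10. For Ntrk2 r was -0.76 (permutation p = 0.00323, adjusted p = 0.0319, rho = -0.70) and for Ngfr 0.79 (permutation p = 0.00102, adjusted p = 0.0173, rho = 0.66), and without morphine-sired 2 and 3 they were -0.87 and 0.80. For Ntrk2 the value was 0.63 with astrocyte and -0.64 with oligodendrocyte markers, both with an adjusted permutation p of 0.126. For Ngfr it was 0.71 with Schwann cell markers, of which Ncmap was listed at 0 in every library (adjusted permutation p = 0.0687). That list was led by Mal, Sox10 and Pmp22. Sox10 is also in the precursor list, so the relations of Ngfr with these lists are not independent. No list passed for Ntrk3 or Ntf3. The largest value was 0.62 for Ntrk3, with serotonergic markers (adjusted permutation p = 0.131), and 0.50 for Ntf3, with choroid plexus markers (adjusted permutation p = 0.258).

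**Figure D5:**
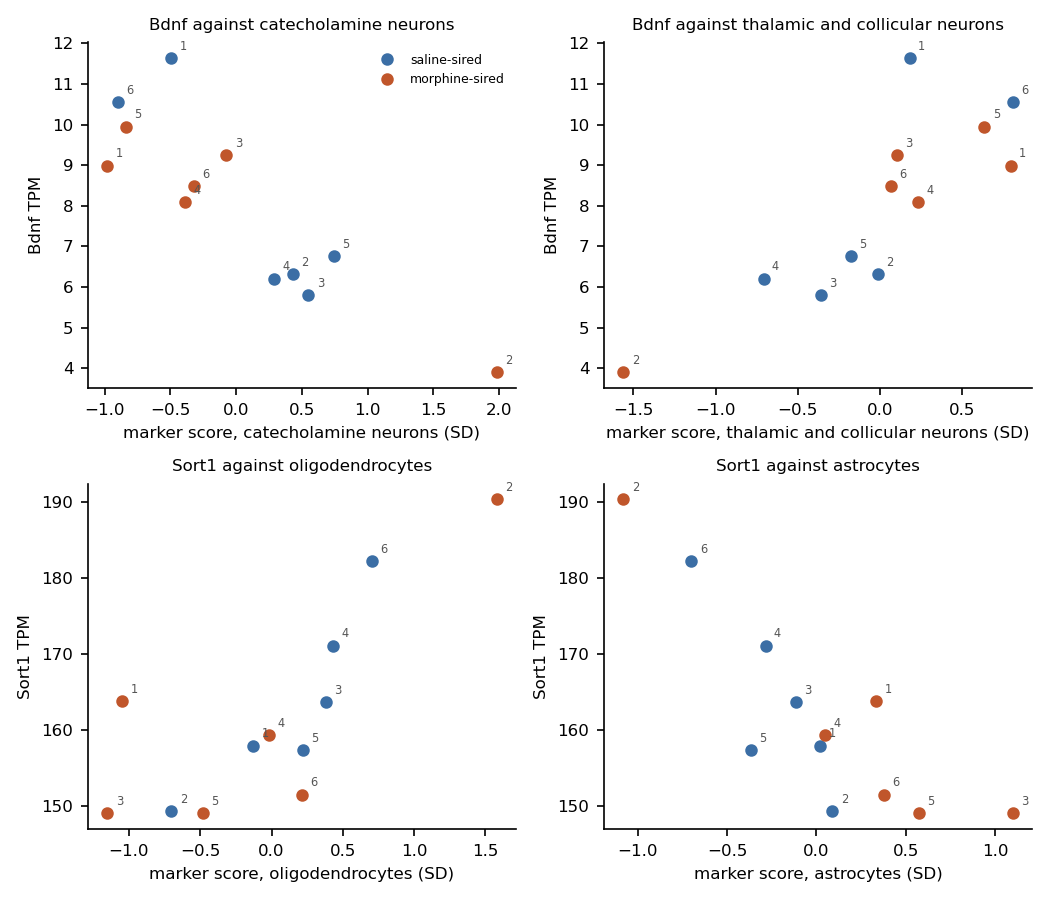
Bdnf and Sort1 TPM (y axes, not starting at 0) against the score of 4 marker lists (x axes, mean of standardised log2 levels, in SD) in the 12 libraries, coloured by group and numbered within it. Bdnf tends lower where the catecholamine score is higher, down to 3.90 TPM at the highest score, and its top value of 11.6 TPM is at the fourth lowest score. Library 2 of the morphine-sired group lies at an end of every panel.

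Between the members themselves, 0 of 15 pairs passed the permutation test on Pearson's r after adjustment. The pair nearest to it was Ntrk2 with Ngfr, the kinase receptor and p75, with r of -0.77 (permutation p = 0.00348, adjusted p = 0.0522, -0.74 within the saline-sired and -0.81 within the morphine-sired group). By Spearman's rho it was -0.79 (adjusted permutation p = 0.0493), and without saline-sired 5 and morphine-sired 2 r was -0.54. Ntrk2 with Sort1 had r of -0.69 (permutation p = 0.0126, adjusted p = 0.0946) and Ngfr with Sort1 0.65 (permutation p = 0.0213, adjusted p = 0.106). Bdnf and its receptor Ntrk2 had 0.54 (permutation p = 0.0689, adjusted p = 0.207), which was 0.10 within the saline-sired and 0.88 within the morphine-sired group.

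Among 11934 genes with a symbol and a mean of at least 5 TPM, the 2 whose log2 levels were most like each member over the 12 libraries are given as a description. For Bdnf they were Gabrg1, a GABA-A receptor subunit (r = 0.94, 26.0 to 59.3 TPM), and Arid2, a chromatin remodelling subunit (0.93). Both had their lowest value in morphine-sired 2 and their highest in saline-sired 1, as Bdnf did. For Sort1 they were Tanc1 (0.94) and Myrf, the transcription factor of myelinating oligodendrocytes (0.93, 66.9 to 138 TPM), and both were highest in morphine-sired 2, as Sort1 was.

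For Ntrk2 they were Abcb10 (0.95) and Tsg101 (0.94), and for Ntrk3 Npr2, a natriuretic peptide receptor (0.93), and Heatr5a (0.90). For Ngfr they were Htatip2 (0.91) and Klc4 (0.89), and for Ntf3 Lactb (0.87) and Proca1 (0.80). These are the extremes of many genes over 12 libraries, and all share the library totals.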

How the data were processed

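PolyA RNA of the periaqueductal grey was sequenced in 12 rats, 6 per group. Per the submitters' processing notes, HISAT2 2.2.0, StringTie 2.1.2 and the build Rnor_6.0 were used; per the file headers, StringTie 1.3.6 wrote the transcript files. The sources used here do not say whether reads were stranded. The authors deposited coverage, FPKM and TPM for 76232 transcripts per library (41063 annotated, 35169 assembled from these reads), and a table of log2 values, equal to log2(FPKM + 1) within 4.9e-08, from which gene symbols were taken. The files hold no read counts, so values rest on 4.39 to 6.03 gigabases without counting intervals.

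TPM was summed per gene. Genes and transcripts with a mean of at least 0.5 TPM were tested with limma 3.58.1 (R 4.3.3) on log2(TPM + 1), with Benjamini-Hochberg adjustment over all tested. The script was tested on simulated data. Transcript classes joined transcripts with overlapping first (Bdnf) or last exons; shares and exon ratios had exact two-sided permutation tests over all 924 assignments of libraries, and correlations two-sided permutation tests with 100000 resamples. Exon depth is the coverage listed per exon, summed over transcripts and divided by library gigabases. Named were the members, their transcripts, the 3 genes of smallest p per list, the other family genes, the 2 most alike genes per member and up to 3 abundant markers per list. Chat, Syt1 and the other general neuronal markers were named in addition, where libraries or a list were uneven. Some genes these rules would name are not reported here. The members, lists and rules were chosen with earlier results of these data known. Alternatives (pseudocount, filter, scaling, annotated transcripts, limma-voom on estimated reads, marker scores as terms, libraries left out) are given at the end.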

Additional observations from a re-analysis of the deposited data

Results flagged for a closer look

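Values are given here where 1 library's gap to its nearest neighbour took up more of its group's range than Dixon's 95% limit for 6 samples (0.625). This applied to 22 of 146 groups of 6 values checked, where chance gives about 1 in 20. No explanation was tested.

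The library morphine-sired 2 stood apart for Bdnf (3.90 TPM, low), for its first exon 6 transcripts (0.218 TPM, low), for the depth of the common last exon of Bdnf (1.76 reads per base and gigabase, low), and for Sort1 (190 TPM, high). It was also high for Rps6ka2 (28.4 TPM) and for Slc12a2 (115 TPM). In saline-sired 1 the first exon 1 transcripts of Bdnf were high, at 4.57 TPM and 39.3% of the gene, as were the depth of the truncated last exon of Ntrk2 (85.8 reads per base and gigabase, 80.4% of the shared exons) and Rcor1 (12.8 TPM). In morphine-sired 3 the truncated last exon of Ntrk2 was low at 34.0% of the shared exons, the shared exons of Ntrk3 were deep (19.9 reads per base and gigabase), and Usf1 was high at 0.104 TPM.

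The remaining values lay in 6 libraries. The depth of the 42-base exon of Ntrk3 was 1.25 reads per base and gigabase in saline-sired 4, and that of Bdnf first exon 6 was 0.554 in saline-sired 5. In saline-sired 6 the depths of Bdnf first exons 5 and 7 were 0.00173 and 0.117, where every other saline-sired library was listed at 0, and first exon 5 was at 0.00866 in morphine-sired 6. The assembled Ntrk3 transcript MSTRG.1557.2 was at 0.912 TPM (2.68% of the gene) in morphine-sired 1 and at 0 in the rest of that group. It was higher in saline-sired 3 (6.08 TPM) and saline-sired 4 (2.99 TPM), and at 0 in the other saline-sired libraries. Sos1 was at 12.3 TPM in morphine-sired 5.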

How the results depend on the processing

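No paired analysis was possible because the labels give no replicate numbers, litters or sires that tie animals of the 2 groups. The count of members, member transcripts, pathway genes and transcript class shares past the threshold was 0 under every alternative in which it was run, including each library left out in turn. Over all genes the count was 0, except for 1 gene without saline-sired 4 and 1 without saline-sired 6 (0 to 1 over the 12 fits). Of 136 log2 differences of members under alternatives, 109 kept their sign and 27 changed it, none past the threshold (smallest limma adjusted p 0.589, for Sort1 without the 2 libraries of highest choroid plexus score, morphine-sired 2 and saline-sired 2).

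Annotated transcripts alone gave 0.011 for Sort1, 0.0059 for Sorcs1, -0.10 for Hras, 0.94 for Rps6ka3 and 0.65 for Mef2d. They also moved Ntrk2 to 1.00, where its annotated transcripts were listed far lower in saline-sired 5 and 6 than in the others. Quantile normalization gave -0.0031 for Ntrk2. Limma-voom on reads estimated from coverage gave -0.039 for Ntrk2, -0.24 for Ntrk3 and 0.0016 for Kidins220. Serotonergic and cholinergic scores as terms gave -0.086 for Bdnf. Without the 2 libraries of highest choroid plexus score Ngfr was at -0.14 and Sorcs3 at 0.036. With each library left out in turn the log2 difference ranged from -0.031 to 0.21 for Bdnf (highest without morphine-sired 2), -0.033 to 0.11 for Ntrk2, -0.056 to 0.053 for Ntrk3, -0.0053 to 0.18 for Ntf3, -0.071 to 0.14 for Ngfr, -0.080 to 0.0017 for Sort1, and -0.19 to 0.0044 for the first exon 4 transcript of Bdnf (ENSRNOT00000080190). The cause was not tested. Ntf3 and Ngfr have no value at a mean of at least 5 TPM.

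The difference in share, in percentage points, ranged from -3.21 to 0.51 for Bdnf first exon 4 and from -0.74 to 1.69 for the last class of Ntrk3 (MSTRG.1557.1). Exon depth in place of transcript classes, an alternative chosen after seeing the data, gave 0 ratios past the threshold and 0 to 2 with each library left out. The truncated last exon of Ntrk2 passed without morphine-sired 5 or 6 and ranged from -14.9 to -7.75. That of Ntrk3 passed without saline-sired 1 or morphine-sired 6 and ranged from 6.42 to 10.4. The 42-base exon of Ntrk3 passed without morphine-sired 3 and ranged from -15.0 to -9.25, and the 75-base exon, never past the threshold, from -15.5 to -9.99. Full-length exons ranged from -1.94 to 0.60 points for Ntrk2 and from -0.54 to 1.151 for Ntrk3, and the 48-base exon of Ntrk2 from -1.32 to 0.39.

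Of the relations of members with marker lists, 11 passed with Pearson's r, 0 with Spearman's rho and 0 without the 2 farthest libraries. Of those among members, 0 passed, 1 with Spearman's rho (Ntrk2 with Ngfr) and 0 without the 2 farthest. Depth limits the exons of Bdnf and the optional exons of Ntrk3 most. Estimates of single transcripts depend on how the assembly split each locus, and the gene totals of Ntrk2 and Sort1 rest in large part on assembled transcripts. Sires and litters may be shared within groups.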
